A study of Mus musculus with 30 samples.

Results

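Cohesin is the ring complex that reels chromatin into loops. NIPBL loads cohesin onto chromatin and drives loop extrusion. PDS5A and PDS5B bind the ring, slow or halt extrusion and, with WAPL, help to release cohesin from DNA. NIPBL therefore works at the step that PDS5 proteins restrain, and the question here was which expression changes seen after loss of PDS5A and PDS5B were smaller, of like size or larger when NIPBL was removed at the same time. In mouse embryonic stem cells, genes that hold naive pluripotency and genes of differentiated lineages can both respond to a change of cohesin.

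The members are 12 of the 30 RNA-seq libraries of the series, chosen by label alone, with 3 libraries in each of 4 groups. All are E14 embryonic stem cells (XY, 129 background) that express Tir1, the plant protein which marks AID-tagged proteins for destruction when auxin is present. The PDS5AB line carries PDS5A-AID and PDS5B-AID, and was sampled untreated and after 24 h of auxin (500 µM). The PDS5AB-NIPBL line carries PDS5A-AID, PDS5B-AID, NIPBL-FKBP and RAD21-Halo, and was sampled untreated and after 24 h of auxin (500 µM) with dTAG-13 (500 nM), the molecule that removes FKBP-tagged proteins. The degron tags sit on the endogenous alleles, and each genotype is represented by 1 named line. The medium held serum, leukemia inhibitory factor, and the inhibitors PD0325901 and CHIR-99021. No group lost NIPBL alone, and no group received dTAG-13 alone. The library names of the 2 lines fall in separate number ranges. The added loss of NIPBL, the HaloTag on RAD21, dTAG-13, the line and the library set therefore cannot be told apart. Nothing in the labels says that replicates came from separate cultures, so p-values measure only the spread between these libraries. Bulk RNA does not separate fewer cells of a type from less RNA per cell.

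The PDS5AB effect is the log2 change from untreated to auxin-treated PDS5AB cells, and the joint effect is the log2 change from untreated to treated PDS5AB-NIPBL cells. The interaction is the joint effect minus the PDS5AB effect. A positive interaction means that a gene's treated level, relative to untreated, was higher when NIPBL was also removed. Tests used the quasi-likelihood method of edgeR, and p-values were adjusted over the 19868 genes tested by the Benjamini-Hochberg procedure (edgeR adjusted p below). A gene is termed called where that value was under 0.05. Levels are TMM-scaled CPM, counts relative to library size.

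The 12 libraries held 19632704 to 35410075 counted fragments, and replicates of a group correlated at 0.987 or more (Pearson's r of log2 CPM over genes, which are not independent). The TMM factor was 1.13 in all 3 auxin-treated PDS5AB libraries and between 0.950 and 1.02 in the other 9. Scaling all libraries by their totals alone, termed below without the composition factor, moved the median PDS5AB effect of all genes from 0.04 to 0.19 and the median interaction from -0.02 to -0.12 on the log2 scale. Stem cell identity was checked with 10 marker genes, including Pou5f1, Nanog and Sox2. Their summed level averaged 7830 CPM in untreated and 5236 CPM in treated PDS5AB cells, and 7782 CPM in untreated and 6379 CPM in treated PDS5AB-NIPBL cells. Summed markers of 4 other cell types reached at most 34.5 CPM in any library (4 endoderm, 4 mesoderm, 4 trophoblast and 5 fibroblast genes). Means of the trophoblast sum went from 6.61 to 25.3 CPM in PDS5AB and from 7.77 to 13.5 CPM in PDS5AB-NIPBL cells with treatment, and those of endoderm from 6.55 to 13.6 CPM and from 2.93 to 4.96 CPM. In PDS5AB cells the trophoblast rise was mostly Krt7 (3.62 to 22.6 CPM), while the means of Cdx2 and Elf5 were lower after treatment. In PDS5AB-NIPBL cells it was mostly Cdx2 (6.38 to 10.3 CPM). Means of the mesoderm sum went down, from 25.3 to 18.5 CPM and from 30.1 to 23.5 CPM, with overlap only in PDS5AB-NIPBL cells. The trophoblast and endoderm sums were higher after treatment, with no overlap, where pluripotency genes fell and epithelial genes rose, and their part in those results was not tested. Sums of neural cells (4 genes, mostly Nes and Tubb3) ran from 126 to 251 CPM.

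Transcripts of the tagged genes do not report protein loss, since degrons act on protein. Nipbl stood at 146 to 157 CPM untreated and 152 to 155 CPM treated in the PDS5AB line, and at 110 to 127 CPM untreated and 113 to 125 CPM treated in the PDS5AB-NIPBL line. The 2 lines differed in level, with no overlap, and treatment left both lines' ranges overlapping (interaction -0.04, edgeR adjusted p = 0.907). The interaction was 0.22 for Pds5a (edgeR adjusted p = 0.368) and 0.12 for Pds5b (edgeR adjusted p = 0.534). With replicate numbers paired within each line, Pds5a passed (edgeR adjusted p = 0.0205). Rad21, the cohesin subunit that holds the ring closed, fell by 0.41 under PDS5AB loss and had an interaction of 0.27 (edgeR adjusted p = 0.0353), a call that was lost in 8 of 20 alternative settings (highest adjusted p = 0.259).

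The interaction was called for 1879 of 19868 genes (9.46%), of which 988 (4.97%) were higher and 891 (4.48%) lower. PDS5AB loss alone changed 9134 genes (46%), and joint loss 3874 (19.5%), or 11255 and 6377 with replicates paired within each line. Interactions of 2-fold or more were called for 88 higher and 330 lower genes. Without the composition factor the split moved to 531 higher and 1597 lower (25% higher, against 52.6%). With replicates paired within each line, 4846 genes were called (2576 higher, 2270 lower), among them all 1879. Leaving out replicate 3 of the treated PDS5AB-NIPBL cells left 567 lower calls.

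Genes were sorted by how the 2 effects compare. Of the 9134 genes that PDS5AB loss changed, 1145 (12.5%) had a smaller effect of the same sign under joint loss with the interaction called, 538 (5.89%) had an effect of opposite sign with the interaction called, and 27 (0.296%) had a larger one. A further 1389 (15.2%) were called with the same sign in both lines and had a 95% interval of the interaction within 1.5-fold either way, and are called alike (1380 of them also with the interval taken from fitted weights). A margin of 0.32 on the log2 scale (a 25% rise) gave 439 alike genes, and one of 2-fold 2053. The remaining 6035 (66.1%) could be put in none of these. Another 135 genes, termed new, were called under joint loss and for the interaction but not for the PDS5AB effect, which may still differ from 0. Smaller and opposite genes together made up 89.6% of all interaction calls. The PDS5AB effect and the interaction share the 6 PDS5AB libraries, so spread in those libraries moves both, in opposite directions. With replicates paired within lines, the classes held 2946 smaller, 1267 opposite, 139 larger, 424 new and 2278 alike genes. Without replicate 2 of the untreated PDS5AB cells the smaller class held 763 genes. The larger class held 14 genes without that library, 17 without untreated replicate 3 and 15 without auxin-treated replicate 2.

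**Figure D1:**
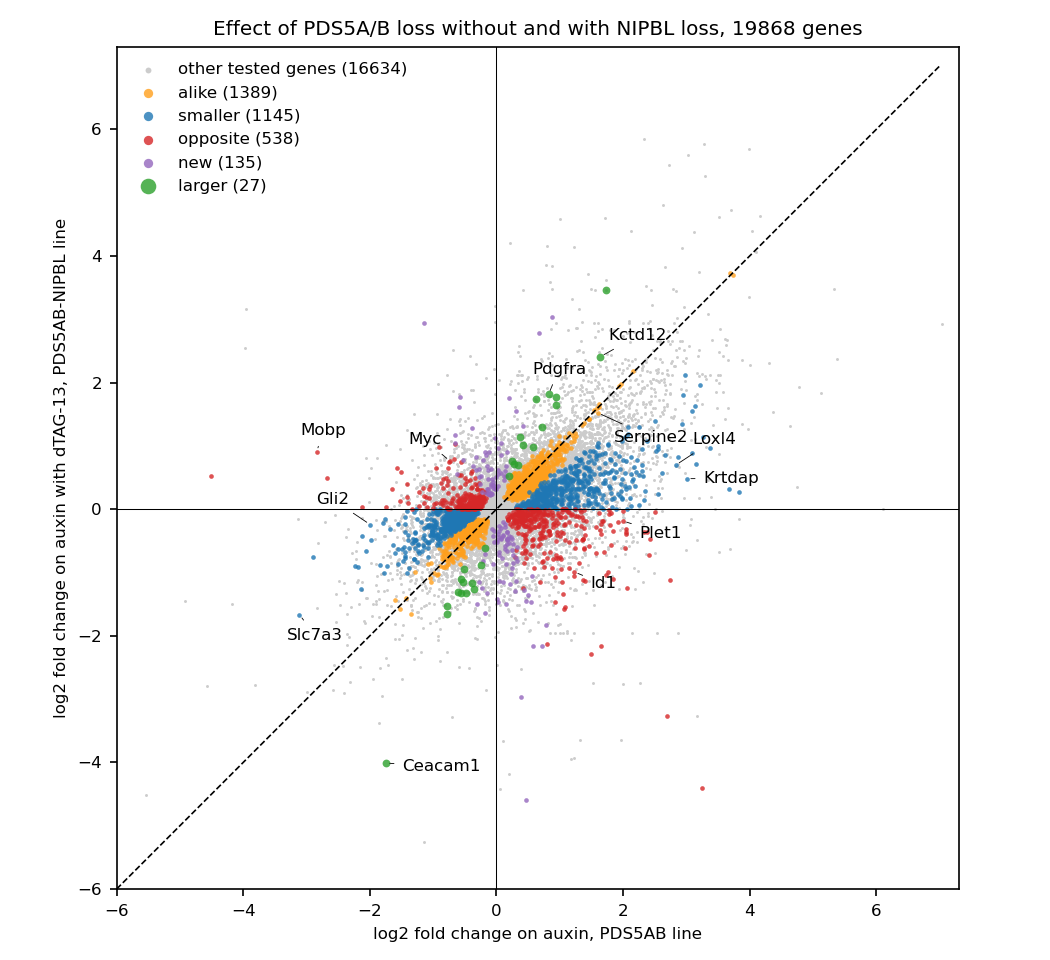
Each point is 1 of 19868 genes; the x axis is the PDS5AB effect and the y axis the joint effect (both log2), coloured by class. The dashed line marks equal effects, smaller genes lie between it and the horizontal zero line, and opposite genes lie across the zero line.

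Within the smaller class, the 660 genes that had fallen under PDS5AB loss had a median PDS5AB effect of -0.62 and a median joint effect of -0.16. The 485 that had risen had medians of 1.10 and 0.30. In the opposite class the 238 that had fallen went from a median of -0.43 to 0.11, and the 300 that had risen from 0.70 to -0.21. Only 75 of the 538 opposite genes had a joint effect that was itself called, so most of that class had a joint effect not told from 0. Alike genes had medians of 0.18 in both lines, but 700 of them rose and 689 fell under PDS5AB loss, so that median is not a typical size.

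Sets chosen on other libraries share none with either effect. The WAPL line carries WAPL-AID and Tir1, and 24 h of auxin (500 µM) changed 32.8% of genes in it. Among 3385 genes that rose there, the median was 0.70 for the PDS5AB effect and 0.39 for the joint effect. The interaction was called lower for 11.4% of them and higher for 1.65%. Among 3132 genes that fell there, the medians were -0.34 and -0.19, with 18.1% called higher and 3.32% lower. Of the 13351 genes not called there, 5.74% had an interaction called.

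Rankings here hold among genes that met the rule for named genes (a mean of at least 50 counts and library differences that do not overlap between lines). The largest positive interaction among such genes whose effect was smaller was that of Gli2, which encodes a transcription factor of the Hedgehog pathway (ENSMUSG00000048402.14, chr1:118834132-119053619, minus strand, GRCm38). Its level was 71.3, 58.3 and 64.2 CPM in untreated and 16.4, 15.6 and 16.6 CPM in treated PDS5AB cells. In PDS5AB-NIPBL cells it was 132, 123 and 128 CPM untreated and 109, 98.4 and 117 CPM treated. Treated libraries were lower than untreated ones in both lines without overlap, by far more in the PDS5AB line. The PDS5AB effect of -1.99 met a joint effect of -0.24, an interaction of 1.75 (SE 0.104, edgeR adjusted p = 2.03e-12). The untreated level was also higher in the PDS5AB-NIPBL line, and this was seen with other genes below. Mobp, the gene of a myelin protein of oligodendrocytes (ENSMUSG00000032517.16, chr9:120149707-120181484, plus strand), had the largest interaction of the opposite class under that rule, at 3.74 (SE 0.288, edgeR adjusted p = 8.85e-10). Fam131c (ENSMUSG00000006218.4, chr4:141368220-141384175, plus strand), was among the new genes that fell.

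The promoters of these 3 genes are shown because they stand for the smaller, opposite and new classes, and because Mobp differs from the others in base composition. Each runs from 250 bases before to 50 after the start site (RefSeq, GRCm38.p6), is written 5′ to 3′ on the gene's strand, and has in capitals any AGGGGGC or AGGTGGC, the core letters of the motif bound by the loop-anchor protein CTCF, on either strand.
Gli2 (chr1:119053570-119053869, minus strand): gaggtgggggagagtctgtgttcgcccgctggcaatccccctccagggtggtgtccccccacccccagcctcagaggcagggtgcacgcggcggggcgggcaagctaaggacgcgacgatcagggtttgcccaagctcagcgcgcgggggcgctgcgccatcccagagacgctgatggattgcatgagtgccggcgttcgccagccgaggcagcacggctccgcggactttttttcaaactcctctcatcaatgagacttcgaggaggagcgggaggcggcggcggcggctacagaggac
Mobp (chr9:120149492-120149791, plus strand): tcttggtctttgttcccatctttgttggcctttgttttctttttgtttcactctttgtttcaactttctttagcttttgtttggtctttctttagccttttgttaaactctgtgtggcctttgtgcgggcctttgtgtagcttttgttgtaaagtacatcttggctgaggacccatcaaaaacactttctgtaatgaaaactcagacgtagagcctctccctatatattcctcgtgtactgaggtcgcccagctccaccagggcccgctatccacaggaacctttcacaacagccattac
Fam131c (chr4:141367942-141368241, plus strand): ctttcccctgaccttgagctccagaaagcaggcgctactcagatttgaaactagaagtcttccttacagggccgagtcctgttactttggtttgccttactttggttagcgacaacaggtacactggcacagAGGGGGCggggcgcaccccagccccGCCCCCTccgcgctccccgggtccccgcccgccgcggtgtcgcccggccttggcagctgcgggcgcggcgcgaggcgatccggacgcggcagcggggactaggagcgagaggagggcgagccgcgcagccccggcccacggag
The Gli2 and Fam131c promoters have a GC content of 67.3% and 68.3%, and that of Mobp 43.3%. Fam131c holds 1 match on each strand, and no match was found in the others.

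One of these 2 motifs was found in 21.9% of the 12729 promoters matched to tested genes, and in 15.8% of all 27025 promoters in the reference table. The share was 18.7% for genes with a higher interaction, 25.7% for those with a lower one, 21% for smaller, 22.2% for opposite, 27.1% for new and 24.8% for alike genes. It was 7 of 19 larger genes. These shares describe letters in a 300-base window, not sites of binding.

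Among other genes whose fall was smaller under joint loss, Slc7a3 encodes a transporter of cationic amino acids. It stood at 87.0, 102 and 101 CPM untreated and 10.1, 11.9 and 11.5 CPM treated in PDS5AB cells, and at 92.6, 103 and 105 CPM untreated and 26.2, 38.1 and 30.5 CPM treated in PDS5AB-NIPBL cells. The untreated levels overlapped between the lines and the treated levels did not. Effects of -3.11 and -1.67 gave an interaction of 1.45 (SE 0.182, edgeR adjusted p = 6.15e-06). Auxin alone lowered Slc7a3 by 1.10 on the log2 scale in the TIR1 line, which carries Tir1 and no degron. Library names of untreated and auxin-treated TIR1 cells fall in separate number ranges. In that line auxin therefore cannot be told apart from the library set, here and below. Mc5r, a melanocortin receptor gene, stood at 4.82, 5.82 and 4.99 CPM untreated and 1.49, 1.73 and 1.37 CPM treated in PDS5AB cells, and at 6.38, 4.61 and 5.86 CPM untreated and 5.15, 4.95 and 5.09 CPM treated in PDS5AB-NIPBL cells. Its treated levels lay within the untreated range in the PDS5AB-NIPBL line only (interaction 1.61, edgeR adjusted p = 0.000199). Notum, a secreted enzyme that inactivates Wnt ligands, had an interaction of 1.37 and its antisense transcript Notumos 1.50 (edgeR adjusted p = 1.27e-06 and 0.000369). Their exons overlap and strand was not used in counting. Fragments in shared positions are dropped for both, and those elsewhere can come from either strand, so they are not fully separable.

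Krtdap, Krt19, Loxl4 and Tmem200b were taken by the rule for named genes from those whose rise was smaller. Krtdap, Loxl4 and Tmem200b reached the mean of 50 counts set for named genes through the treated PDS5AB libraries alone (means of 21.3, 45.3 and 14.2 counts over the other 9), so a high value there is part of how they were chosen. Krtdap, a gene of differentiating keratinocytes, stood at 0.742, 0.661 and 0.911 CPM untreated and 4.77, 6.89 and 7.09 CPM treated in PDS5AB cells, and between 0.622 and 1.11 CPM in all 6 PDS5AB-NIPBL libraries. Only the treated PDS5AB libraries were high (interaction -2.52, edgeR adjusted p = 0.000103). Krt19, a keratin of simple epithelia, stood at 16.7, 19.5 and 25.5 CPM untreated and 104, 132 and 145 CPM treated in PDS5AB cells. In PDS5AB-NIPBL cells it stood at 21.7, 25.3 and 9.56 CPM untreated and 30.7, 38.4 and 15.2 CPM treated, ranges that overlap although each of the 3 same-numbered pairs was higher after treatment. Its effects of 2.62 and 0.57 gave an interaction of -2.05 (edgeR adjusted p = 0.00249). Loxl4, a matrix crosslinking enzyme, rose from 2.80, 2.08 and 2.18 CPM to 18.5, 16.3 and 15.4 CPM in PDS5AB cells, and stood at 0.789, 1.22 and 0.852 CPM untreated and 1.55, 1.31 and 1.68 CPM treated in PDS5AB-NIPBL cells (interaction -2.14, edgeR adjusted p = 3.74e-05). Tmem200b, a membrane protein gene, had an interaction of -2.19 (edgeR adjusted p = 0.00721), a call lost without replicate 1 of the untreated PDS5AB-NIPBL cells (adjusted p = 0.162).

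Some genes had effects of opposite sign in the 2 lines. Mobp stood at 5.26, 8.83 and 8.53 CPM untreated and 0.746, 1.05 and 1.34 CPM treated in PDS5AB cells, and at 22.5, 17.5 and 15.7 CPM untreated and 40.7, 34.9 and 28.9 CPM treated in PDS5AB-NIPBL cells. Treated libraries were lower in the first line and higher in the second, without overlap (effects -2.84 and 0.91). Auxin alone raised it by 0.92 in the TIR1 line. Myc, the growth-promoting transcription factor, stood at 23.1, 12.7 and 13.8 CPM untreated and 12.2, 8.30 and 9.31 CPM treated in PDS5AB cells, and at 17, 16.4 and 23.9 CPM untreated and 32.8, 25.7 and 38.4 CPM treated in PDS5AB-NIPBL cells. The fall of 0.73 and rise of 0.76 on the log2 scale gave an interaction of 1.49, with no overlap between untreated and treated libraries in either line (SE 0.299, edgeR adjusted p = 0.00148). Auxin alone lowered Myc by 0.83 in the TIR1 line (edgeR adjusted p = 0.00749). H19, an imprinted noncoding RNA, had effects of -0.66 and 1.03 (interaction edgeR adjusted p = 0.00534), although the 2 groups of the PDS5AB line overlapped. Bdh2, a short-chain dehydrogenase, fell by 1.52 under PDS5AB loss and had a joint effect of 0.13 that was not called (interaction 1.65, edgeR adjusted p = 0.00039). Auxin alone lowered Bdh2 by 1.14 in the TIR1 line (edgeR adjusted p = 0.000332).

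Id1, an inhibitor of differentiation induced by BMP signals, stood at 8.23, 6.31 and 5.91 CPM untreated and 21.9, 14.3 and 11.6 CPM treated in PDS5AB cells. In PDS5AB-NIPBL cells it stood at 3.55, 4.96 and 5.93 CPM untreated and 2.14, 2.37 and 2.72 CPM treated. It was higher after treatment in the first line and lower in the second, without overlap (effects 1.23 and -0.99, interaction -2.21, edgeR adjusted p = 4.19e-05). Dlx2, a homeobox factor of forebrain neurons, had effects of 1.37 and -1.12 and an interaction of -2.48 (edgeR adjusted p = 0.00146). The interaction was -2.39 for the calcium channel gene Cacna1h (edgeR adjusted p = 0.0021) and -2.18 for Plet1, a surface protein of trophoblast and epithelial progenitors (edgeR adjusted p = 1.28e-06). The joint effects of Cacna1h and Plet1, -0.57 and -0.19, were not called. Both genes overlap exons on the other strand (Tpsg1 and Plet1os), as Dlx2 and Id1 do not. Dlx2 also reached a mean of 50 counts only through the treated PDS5AB libraries, as Glod5 below did through the treated PDS5AB-NIPBL ones.

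The 27 genes with a larger effect were few. Ceacam1, a cell adhesion protein, stood at 4.28, 5.29 and 5.35 CPM untreated and 1.64, 1.18 and 1.63 CPM treated in PDS5AB cells, and at 9.43, 10.1 and 5.90 CPM untreated and 0.455, 0.859 and 0.322 CPM treated in PDS5AB-NIPBL cells. Treated libraries were lower in both lines without overlap, with effects of -1.75 and -4.01 (interaction -2.26, SE 0.355, edgeR adjusted p = 0.000113). Pdgfra, the receptor of platelet-derived growth factor found in primitive endoderm and mesoderm, rose in both lines. Its levels were 5.73, 7.60 and 7.17 CPM untreated and 11.3, 11.3 and 13.7 CPM treated in PDS5AB cells, and 4.95, 4.40 and 5.18 CPM untreated and 16.6, 16.6 and 18.0 CPM treated in PDS5AB-NIPBL cells (effects 0.82 and 1.81, interaction edgeR adjusted p = 0.00269). It shares exon positions with Gm42802 and Gm42803 on the other strand. Kctd12, an auxiliary subunit of GABA-B receptors, rose by 1.64 and 2.41 (edgeR adjusted p = 0.00638). The semaphorins Sema7a and Sema5b, axon guidance proteins, fell by 1.27 and 1.65 under joint loss against 0.35 and 0.78 (edgeR adjusted p = 0.00241 and 0.00318).

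Among the 135 new genes, Slc2a1, the main glucose transporter of dividing cells, stood at 236, 247 and 252 CPM untreated and 272, 309 and 304 CPM treated in PDS5AB cells. In PDS5AB-NIPBL cells it stood at 437, 491 and 343 CPM untreated and 240, 281 and 183 CPM treated. Untreated PDS5AB-NIPBL cells were the highest group, and treatment took that line into and below the range of the other (effects 0.27 and -0.86, interaction -1.12, edgeR adjusted p = 0.000487). Fam131c stood at 8.53, 9.16 and 9.27 CPM untreated and 7.50, 6.96 and 7.45 CPM treated in PDS5AB cells, and at 8.39, 6.88 and 7.93 CPM untreated and 2.78, 3.23 and 2.29 CPM treated in PDS5AB-NIPBL cells (interaction -1.20, edgeR adjusted p = 0.000656). Only the treated PDS5AB-NIPBL libraries were apart by a wide gap. Car8, a carbonic anhydrase-related protein, had a joint effect of -1.03, Krt13, a keratin of stratified epithelia, one of -1.46, and Trank1 one of -1.19. Those that rose under joint loss included Glod5 (1.05), Grid2ip, a partner of a glutamate receptor (1.55), and Fkbp6, a germline chaperone (0.55). The PDS5AB effects of Glod5 and Fkbp6, -0.65 and -0.62, were just short of a call (edgeR adjusted p = 0.0557 and 0.0591), and their treated and untreated PDS5AB libraries did not overlap. Fkbp6 stood at 0.742 to 0.826 CPM in untreated PDS5AB and 14.2 to 17.7 CPM in untreated PDS5AB-NIPBL cells, so its level differed between the lines before treatment.

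Untreated levels differed by 2-fold or more between the lines for 249 genes that were higher and 681 that were lower in PDS5AB-NIPBL cells, of 14574 with a mean of 1 CPM or more. These shares of 1.71% and 4.67% compare with 2.26% and 1.13% among genes with a higher interaction and 2.49% and 5.74% among those with a lower one. Their part in the interaction was not tested.

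Alike genes show what kept its size when NIPBL was also lost. Serpine2, a secreted protease inhibitor, stood at 64.8, 50.4 and 49.3 CPM untreated and 175, 161 and 162 CPM treated in PDS5AB cells, and at 22.8, 17.5 and 21.9 CPM untreated and 64.1, 56.9 and 58.4 CPM treated in PDS5AB-NIPBL cells. The lines differed in level at both times, and the rise was 1.60 and 1.52 (interaction -0.07, 95% interval -0.43 to 0.28). Dcbld1, a membrane protein gene, fell from 40.6, 29.5 and 30 CPM to 13.5, 12.2 and 11.6 CPM in the first line and from 31.8, 28.2 and 38.0 CPM to 12.9, 12.1 and 12.2 CPM in the second (interaction 0.02, 95% interval -0.29 to 0.34). Epb41l4a, a cytoskeletal linker, fell by 1.60 and 1.43 (interval -0.07 to 0.41). Alox5, which makes leukotrienes, rose by 1.94 and 1.95, but its interval from fitted weights, -0.90 to 0.93, was too wide to term it alike.

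**Figure D2:**
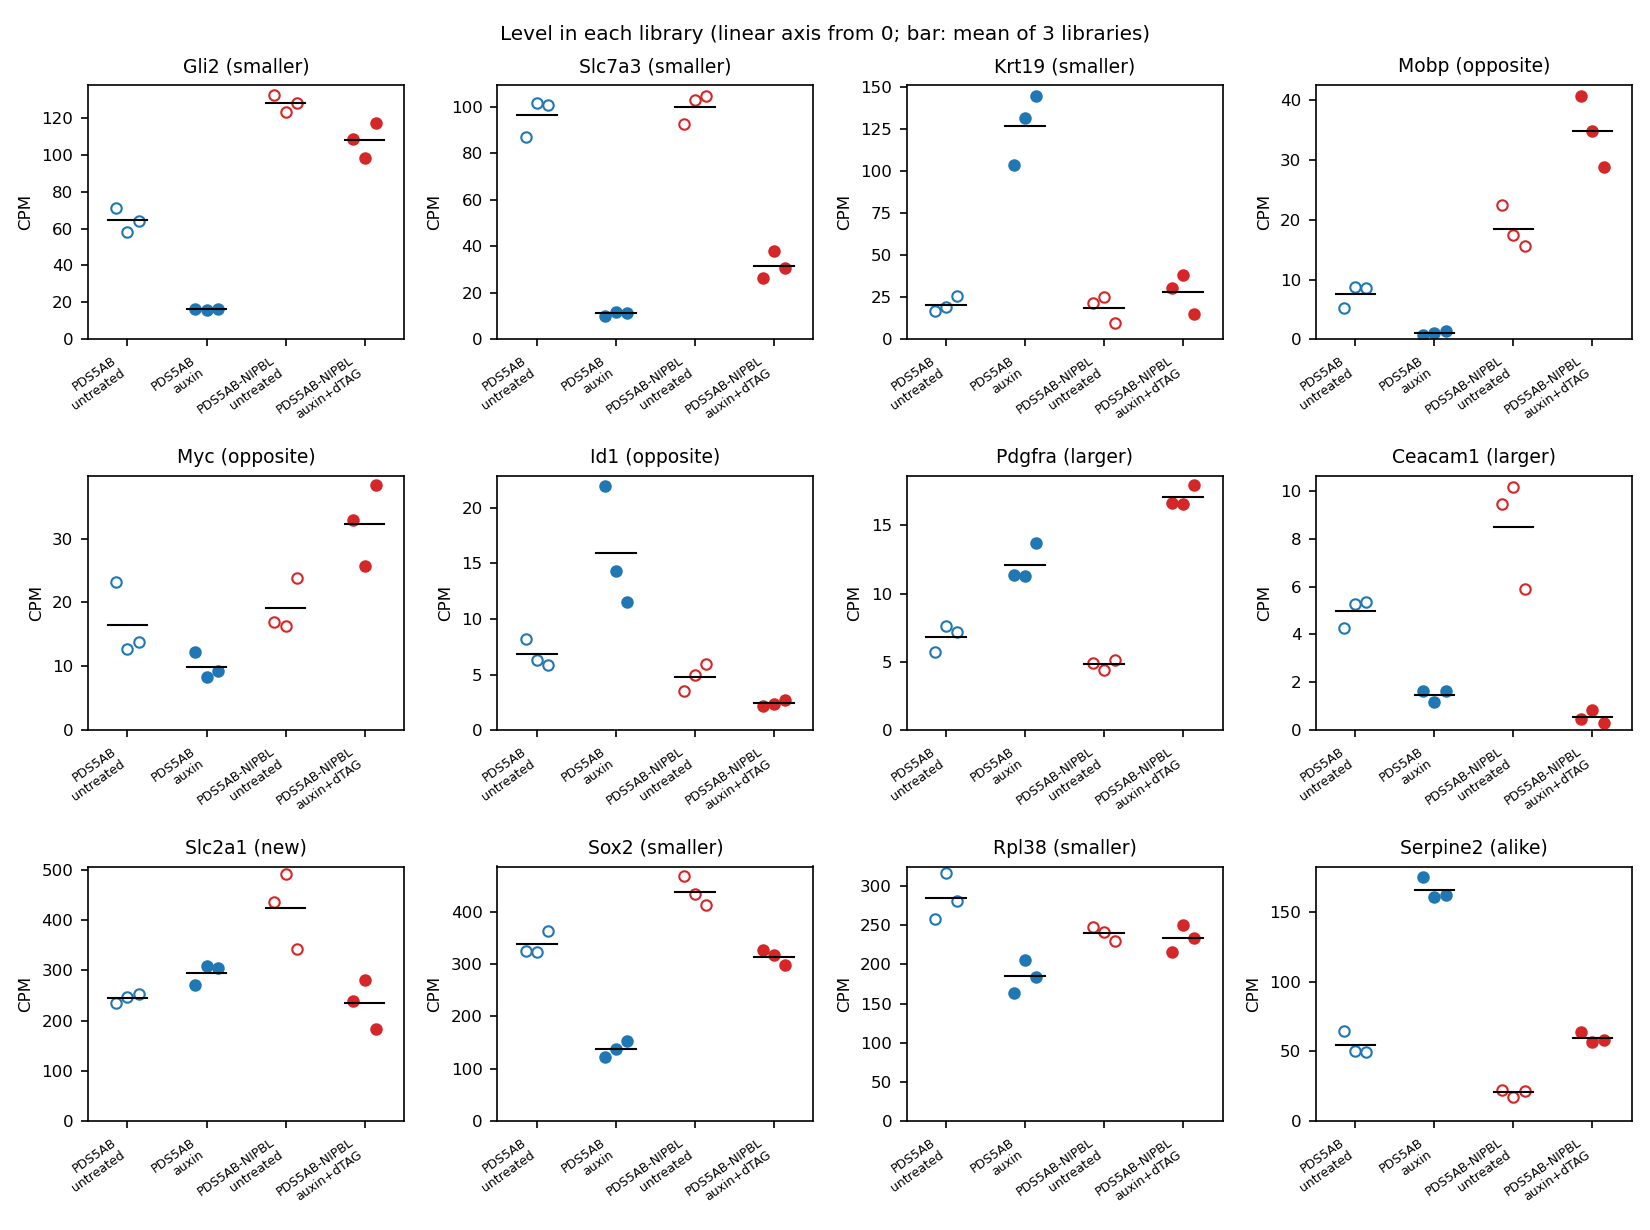
Levels (TMM-scaled CPM) of 12 named genes in each of the 12 libraries; open points are untreated, filled points treated, and bars are means of 3 libraries. Gli2 and Slc7a3 drop less in PDS5AB-NIPBL than in PDS5AB cells, Krt19 rises less, Mobp, Myc and Id1 go opposite ways, and Serpine2 rises by a like factor in both.

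Gene groups were compared with the whole table, in which 4.97% of genes were called higher and 4.48% lower and the median interaction was -0.02. PDS5AB loss raised 25.8% of all genes and lowered 20.2%, and joint loss raised 11.4% and lowered 8.06%. With replicates paired within lines the interaction was called higher for 13% and lower for 11.4% of all genes, and 15.3% fell under joint loss. Without the composition factor 35.6% rose and 11.9% fell under PDS5AB loss, and the interaction was called higher for 2.67% and lower for 8.04%. The lists were drawn up with earlier results of these data known, so their counts are descriptions.

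Ribosomal protein genes moved together. All 45 fell under PDS5AB loss (median -0.43), and 0 were called under joint loss (median -0.07; 1 fell at an unadjusted p under 0.05, 0 were called by DESeq2, and 15 fell with replicates paired within lines). The interaction was positive for all 45, from 0.21 to 0.69, and was called higher for 25 (55.6%). Rpl38, of the large subunit, stood at 258, 317 and 281 CPM untreated and 164, 206 and 184 CPM treated in PDS5AB cells, and at 248, 242 and 230 CPM untreated and 216, 251 and 234 CPM treated in PDS5AB-NIPBL cells. Its treated libraries were lower without overlap in the first line and overlapped the untreated ones in the second (interaction 0.59, edgeR adjusted p = 0.00105). Rps20, of the small subunit, had effects of -0.75 and -0.19. The count of 25 fell to 7 without replicate 2 of the untreated PDS5AB cells, to 15 without replicate 2 or 3 of the untreated PDS5AB-NIPBL cells, and to 16 without replicate 1 of either treated group. It was 45 with replicates paired within lines and 11 without the composition factor. Auxin alone changed 13 of these genes in the TIR1 line (median -0.18).

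A smaller fall under joint loss was called for part of the naive pluripotency genes. PDS5AB loss lowered 23 of 28 and joint loss 17, with medians of -0.75 and -0.39, and the interaction was called higher for 12 (42.9%), or 16 with replicates paired within lines. It was called lower for 0, also at an unadjusted p under 0.05 and by DESeq2. Nanog, a core pluripotency factor, stood at 1042, 1284 and 1262 CPM untreated and 627, 757 and 784 CPM treated in PDS5AB cells, and at 1104, 932 and 1139 CPM untreated and 870, 831 and 974.7 CPM treated in PDS5AB-NIPBL cells. The groups overlapped only in the second line, where each of the 3 same-numbered pairs was lower after treatment (interaction 0.48, edgeR adjusted p = 0.00861). Sox2, which partners Oct4, stood at 326, 323 and 363 CPM untreated and 123, 138 and 153 CPM treated, and at 469, 433 and 412 CPM untreated and 327, 318 and 297 CPM treated (effects -1.29 and -0.48, edgeR adjusted p = 1.71e-05). It was lower after treatment in both lines without overlap. Zfp42 and Esrrb had interactions of 0.51 and 0.42. Jam2, an adhesion molecule, and Gbx2, a homeobox factor, fell by 0.85 and 0.84 under PDS5AB loss and had joint effects of 0.15 and 0.34 that were not called (interaction edgeR adjusted p = 1.59e-09 and 0.00061). The fall was alike for 6 members, among them Klf4 (-0.86 and -0.66, interval -0.10 to 0.49) and Pou5f1, which encodes Oct4 (-0.65 and -0.45, interval -0.02 to 0.41). Pou5f1 passed with replicates paired within lines (edgeR adjusted p = 0.00424).

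For genes of amino acid supply controlled by the stress factor ATF4, 8 of 28 had a smaller fall called. Of the 28, 18 fell under PDS5AB loss and 11 under joint loss (medians -0.55 and -0.21), and the interaction was called higher for 8 and lower for 2. Atf4 itself stood at 244, 308 and 264 CPM untreated and 118, 145 and 150 CPM treated in PDS5AB cells, and at 260, 241 and 243 CPM untreated and 202, 208 and 199 CPM treated in PDS5AB-NIPBL cells. Both drops were free of overlap, and the second was smaller (-0.98 and -0.29, interaction edgeR adjusted p = 0.000222). Psat1, of serine synthesis, had effects of -1.30 and -0.52, Aldh18a1, of proline synthesis, -1.28 and -0.48, and Asns, which makes asparagine, -0.55 and -0.18. The 2 called lower were Ddit4 and Cebpb, which had risen, and these calls were lost in 4 and 3 of 20 settings. Auxin alone changed 16 of the 28 in the TIR1 line (median -0.33). With replicates paired within lines 16 were called higher and 5 lower.

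Replication genes fell in both lines. Of 34, 32 fell under PDS5AB loss and 20 under joint loss, with medians of -0.38 and -0.25, and 15 were alike. The interaction was called higher for 6, or 10 without replicate 2 of the treated PDS5AB-NIPBL cells, and for 19 with replicates paired within lines. Pcna, the sliding clamp of DNA polymerase, stood at 249, 284 and 253 CPM untreated and 141, 162 and 152 CPM treated in PDS5AB cells, and at 271, 262 and 278 CPM untreated and 211, 213 and 227 CPM treated in PDS5AB-NIPBL cells (interaction 0.47, edgeR adjusted p = 0.00107). The fall in the second line was free of overlap and smaller. Rrm2, the ribonucleotide reductase subunit that limits nucleotide supply, stood at 244, 218 and 212 CPM untreated and 119, 111 and 109 CPM treated, and at 371, 314 and 363 CPM untreated and 379, 347 and 390 CPM treated. Treated libraries were lower without overlap in the first line and overlapped the untreated ones in the second, where each of the 3 same-numbered pairs was higher (effects -0.99 and 0.09, interaction 1.08, edgeR adjusted p = 2.03e-07). Mcm10 and Pola1, which start DNA synthesis, had interactions of 0.58 and 0.54. Of 30 mitosis genes, 20 fell under PDS5AB loss and 2 under joint loss, near the share of all genes (8 at an unadjusted p under 0.05, 4 by DESeq2), and the interaction was called higher for 4, for 7 without replicate 1 of the untreated PDS5AB cells and for 17 with replicates paired within lines, when 13 fell under joint loss. Without the composition factor 11 mitosis genes fell and 4 rose under PDS5AB loss, and 2 had a higher interaction. Of 30 respiratory chain genes, 19 fell and then 0 (4 fell at an unadjusted p under 0.05, 3 by DESeq2), with the interaction called higher for 3, for 14 with pairing and for 0 without the composition factor. With pairing 7 fell under joint loss, and without that factor 6 rather than 19 fell under PDS5AB loss.

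A smaller or lost rise was called for 8 of 32 epithelial and adhesion genes. Of the 32, 19 rose under PDS5AB loss and 9 under joint loss (medians 0.55 and 0.11), and the interaction was called lower for 10 (31.2%), for 6 without replicate 2 of the untreated or replicate 1 of the treated PDS5AB cells, and for 18 with replicates paired within lines. Cldn4, a tight junction claudin, stood at 102, 98.0 and 98.8 CPM untreated and 206, 186 and 182 CPM treated in PDS5AB cells, and at 80.1, 87.8 and 76.4 CPM untreated and 92.9, 102 and 97.0 CPM treated in PDS5AB-NIPBL cells. Treated libraries were higher in both lines without overlap, by less in the second (interaction -0.68, edgeR adjusted p = 7.51e-05). Cdh1, which encodes E-cadherin, had effects of 0.50 and 0.13 (edgeR adjusted p = 0.00125), and Dsp, a desmosome protein, 1.49 and 0.10 (edgeR adjusted p = 1.02e-05). Dsp overlaps Gm10129 on the other strand. Krt18, a simple keratin, had effects of 1.62 and 0.65, a call lost in 3 of 20 settings. In the trophoblast and keratin list, which shares Krt8 and Krt18, 6 of 16 were called lower (2 without replicate 1 of the treated and 3 without replicate 2 of the untreated PDS5AB cells) and 1, Cdx2, higher, a call lost in 7 of 20 settings (highest edgeR adjusted p = 0.0889). The other 2 of the 10 epithelial calls were Ceacam1, which fell in both lines, and Pkp3, a desmosome protein, for which neither effect was called.

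Targets of p53 rose in both lines. Of 30, 23 rose under PDS5AB loss and 25 under joint loss (medians 0.70 and 0.47), and 15 were alike. Mdm2, the ubiquitin ligase that restrains p53, rose by 0.74 and 0.71 (95% interval of the interaction -0.20 to 0.14). Ccng1, a p53-induced cyclin, rose by 0.68 and 0.59 (interval -0.28 to 0.10). The interaction was called higher for 1 and lower for 4. The lower ones included Pmaip1, a death-promoting protein (-0.74, edgeR adjusted p = 0.00525), and Cdkn1a, the cell cycle inhibitor p21 (-0.41, edgeR adjusted p = 0.0228, lost in 6 of 20 settings, and the gene overlaps AC167363.2 on the other strand). The interaction was lower for 2 without replicate 1 or 2 of the untreated or replicate 3 of the treated PDS5AB-NIPBL cells, lower for 8 and higher for 4 with pairing, and lower for 7 and higher for 0 without the composition factor. Auxin alone changed 17 of the 30 in the TIR1 line (median 0.30), and raised Mdm2 by 0.46. Cholesterol synthesis genes fell in 8 and 9 of 25 cases, 7 of them alike, and the interaction was called for 0 (2 lower at an unadjusted p under 0.05, 0 by DESeq2, 1 higher and 6 lower with pairing). With pairing 14 fell under joint loss. The direction under PDS5AB loss depended on the scaling: without the composition factor 2 cholesterol genes fell, 8 rose and the median was 0.04.

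**Figure D3:**
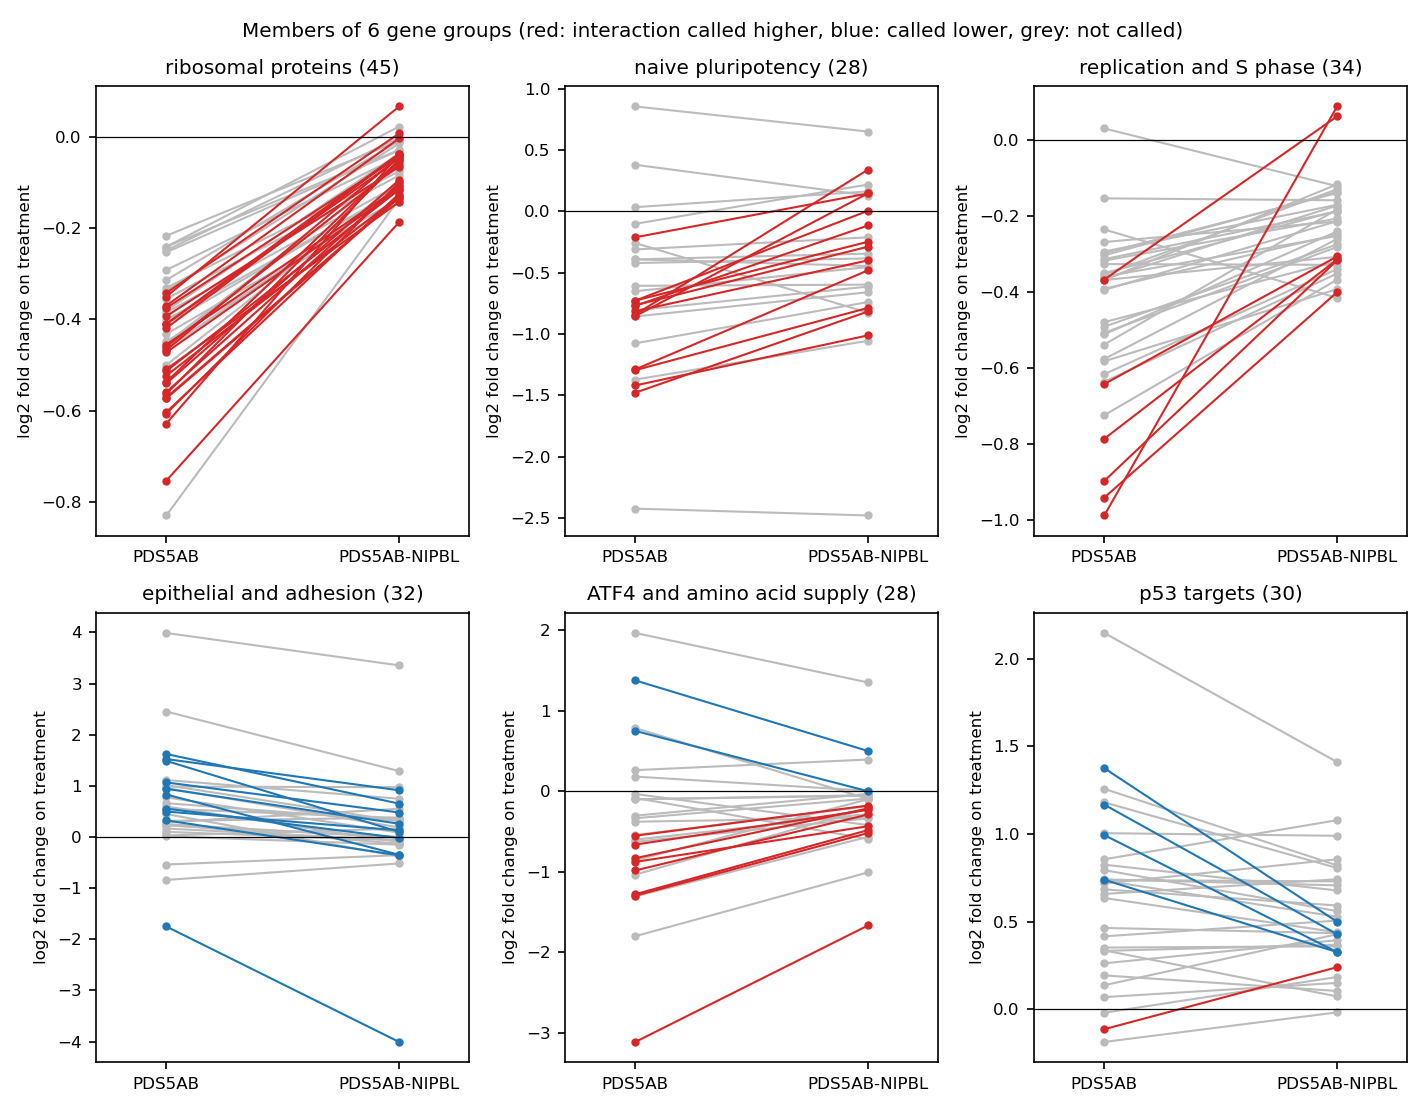
For 6 gene groups, each line joins 1 gene's PDS5AB effect (left) to its joint effect (right), both log2. Ribosomal, pluripotency, replication and ATF4 genes mostly move up towards 0, epithelial genes mostly down towards 0 (Ceacam1 falls from -1.75 to -4.01), and p53 targets mostly stay above 0.

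Signal and lineage genes gave mixed counts. Fos, an immediate-early factor, stood at 4.89, 3.70 and 3.86 CPM untreated and 20.7, 18.6 and 18.7 CPM treated in PDS5AB cells, and at 7.10, 7.79 and 5.90 CPM untreated and 11.8, 13.8 and 9.96 CPM treated in PDS5AB-NIPBL cells. It was higher after treatment in both lines without overlap, by less in the second (interaction -1.45, edgeR adjusted p = 0.000128). Smad6, a feedback inhibitor of BMP signals, had effects of 1.28 and 0.05, and Fzd7, a Wnt receptor, 0.52 and -0.71 (edgeR adjusted p = 0.000155 and 3.74e-05). Apoe, a lipid carrier, stood at 404, 408 and 413 CPM untreated and 184, 187 and 184 CPM treated in PDS5AB cells, and at 491, 510 and 411 CPM untreated and 531, 520 and 460 CPM treated in PDS5AB-NIPBL cells. Treated libraries were lower without overlap in the first line and overlapped the untreated ones in the second, where each of the 3 same-numbered pairs was higher after treatment (interaction 1.24, edgeR adjusted p = 2.02e-08). Ccn2, a matrix protein and YAP target, had effects of 1.87 and 0.71, and the antigen-presenting genes H2-K1 and H2-D1 1.16 and 0.13, and 1.02 and 0.08. Meioc, a meiosis regulator, rose by 2.12 under PDS5AB loss and had a joint effect of 0.55 that was not called (interaction edgeR adjusted p = 0.000355). Phlda2, an imprinted growth regulator, fell by 0.87 and then rose by 0.42.

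Counts for the other lists, as called higher and lower of those tested, were as follows. They were 2 and 1 of 22 cohesin genes, 3 and 4 of 25 formative epiblast, 2 and 3 of 27 mesoderm, 3 and 1 of 22 endoderm, and 1 and 0 of 29 neural genes. They were 2 and 3 of 21 ERK feedback, 1 and 3 of 23 Nodal and BMP, 3 and 1 of 21 Wnt output, 1 and 0 of 9 aryl hydrocarbon receptor and 2 and 1 of 20 NRF2 genes. They were 0 and 3 of 24 glycolysis, 2 and 3 of 37 mesenchymal, 2 and 2 of 24 interferon, 3 and 5 of 29 germline and 5 and 3 of 36 imprinted genes. They were 0 and 3 of 29 Hox, 2 and 0 of 32 protocadherin, 2 and 3 of 34 apoptosis and lysosome and 0 and 5 of 30 channel genes. With replicates paired within lines they were 7 and 1 for cohesin, 5 and 7 for formative epiblast, 3 and 3 for mesoderm, 4 and 5 for endoderm and 2 and 2 for neural genes. Pairing gave 4 and 5 for ERK feedback, 1 and 7 for Nodal and BMP, 7 and 7 for Wnt output, 4 and 0 for aryl hydrocarbon receptor and 5 and 5 for NRF2 genes. It gave 3 and 9 for glycolysis, 2 and 10 for mesenchymal, 4 and 4 for interferon, 5 and 8 for germline and 8 and 5 for imprinted genes. It gave 0 and 6 for Hox, 3 and 0 for protocadherin, 6 and 8 for apoptosis and lysosome and 0 and 7 for channel genes. Several of these balances also moved without the composition factor. The counts were then 0 and 1 for cohesin, 2 and 5 for formative epiblast, 1 and 3 for mesoderm, 3 and 2 for endoderm, 1 and 1 for neural, 2 and 4 for Wnt output, 0 and 0 for aryl hydrocarbon receptor and 1 and 4 for NRF2 genes. They were 1 and 4 for mesenchymal, 2 and 4 for interferon, 5 and 6 for imprinted, 0 and 5 for Hox, 1 and 0 for protocadherin and 0 and 6 for apoptosis and lysosome genes. The remaining lists moved by at most 1 gene. The channel list had a median PDS5AB effect of 0.59 and a median joint effect of 0.01. Where a count is 0, the numbers at an unadjusted p under 0.05 and by DESeq2 were 3 and 1 for neural lower, 3 and 0 for glycolysis higher, 2 and 0 for Hox higher and 1 and 0 for protocadherin lower. They were 0 and 0 for aryl hydrocarbon receptor lower and channel higher. Glycolysis counts 24 gene rows for 23 symbols.

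Genes of the 2-cell-like state, a rare state of stem cells resembling the early embryo, stood at far lower levels in the PDS5AB-NIPBL line. Of 18, 15 rose under PDS5AB loss and 0 under joint loss (2 at an unadjusted p under 0.05, 2 by DESeq2, 2 with pairing), and the interaction was called for 0 (0 at an unadjusted p under 0.05, 0 by DESeq2). The median effects were 1.22 and 1.19, so the median rise was of like size where the calls were lost. At the low levels of the PDS5AB-NIPBL line, the missing calls cannot tell whether the rise changed. Summed levels of 5 of them (3 Zscan4 genes, Usp17lb and Tcstv3) ran from 26.4 to 37.4 CPM in untreated and 60.4 to 82.3 CPM in treated PDS5AB cells. In the PDS5AB-NIPBL line they ran from 0.131 to 0.164 CPM untreated and from 0.215 to 0.505 CPM treated. Treated libraries were higher than untreated ones without overlap in both lines.

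**Figure D4:**
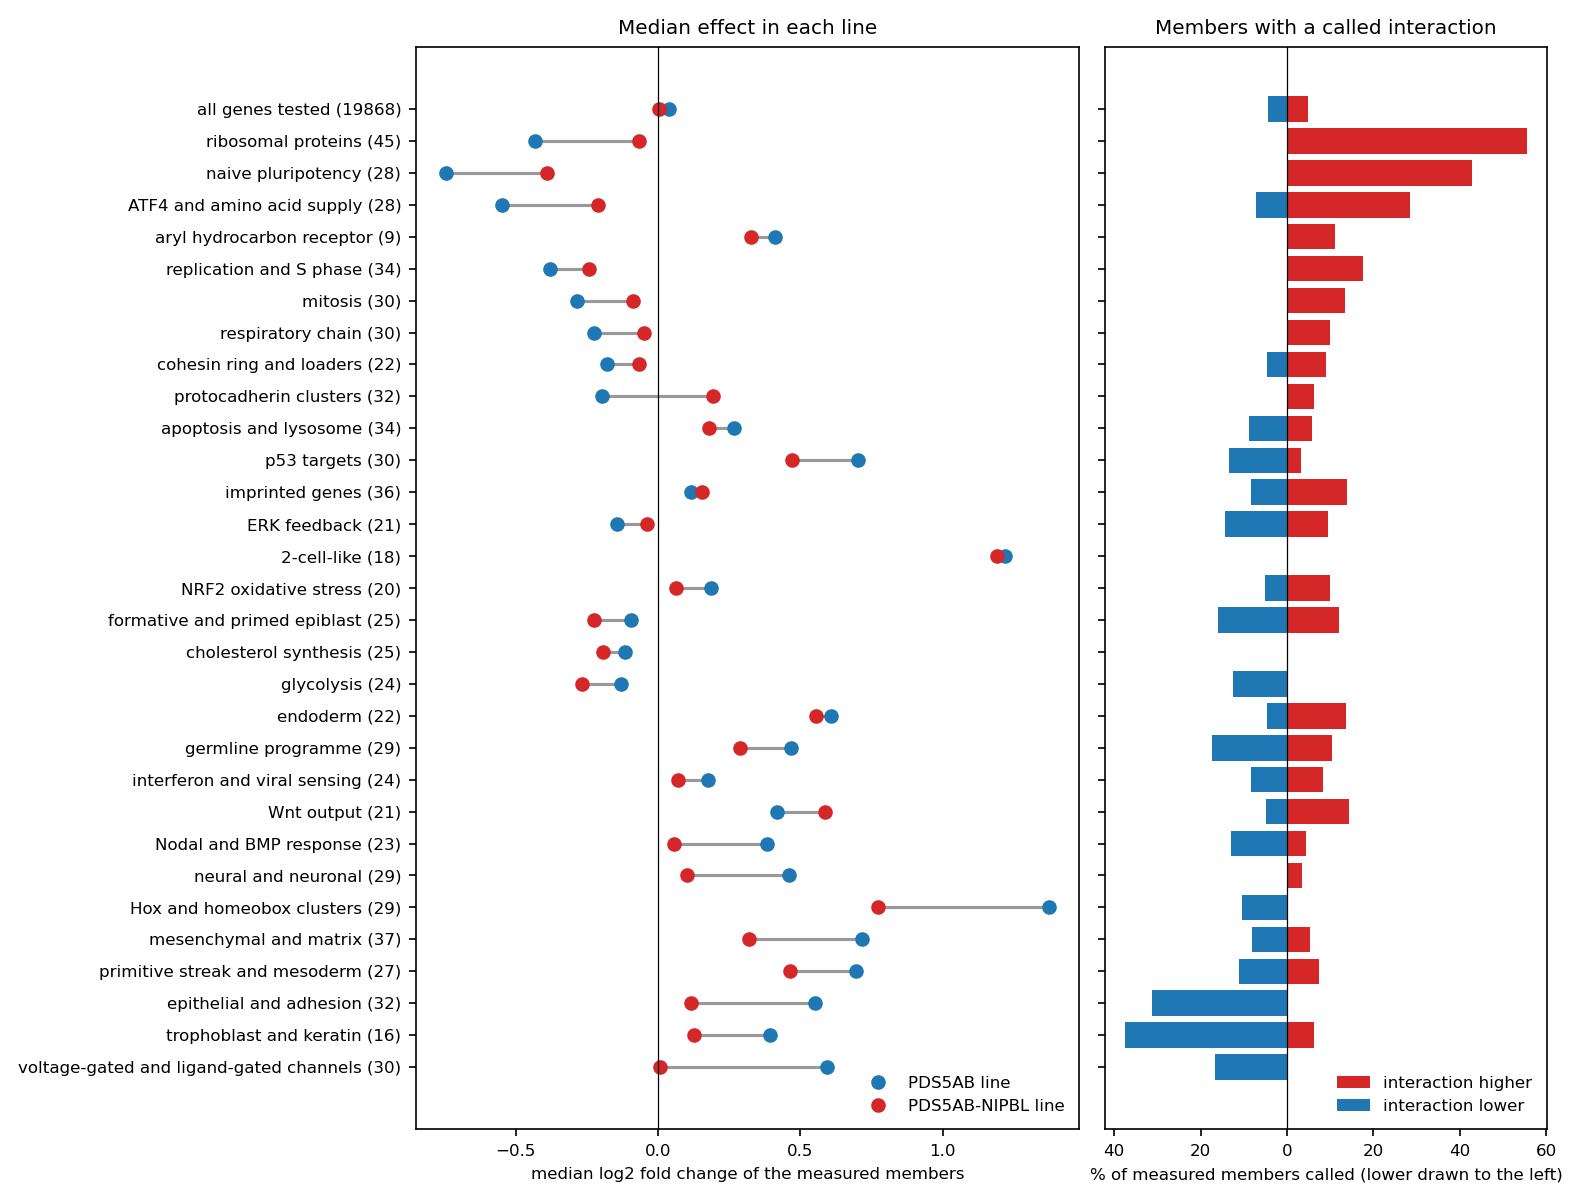
Left, the median PDS5AB effect and median joint effect (log2) of each gene list and of all genes tested; right, the percentage of each list called higher or lower in the interaction. Ribosomal and naive pluripotency lists have the largest shares called higher, at 55.6% and 42.9% of their members, against 4.97% of all genes.

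Expression level and gene length went with the direction. Genes were split into 4 sets of near-equal size. In the set with the highest mean CPM, 626 of 4967 (12.6%) were called higher and 149 (3%) lower, against 15 and 56 in the set with the lowest. CPM is not scaled to length, and high counts also give more power. In the set with the longest span (43672 to 2960900 bases), 196 were called higher and 352 lower, against 169 and 85 in the shortest (54 to 4589 bases). The median PDS5AB effect was 0.16 in the longest and -0.13 in the shortest set, and the median joint effect 0.04 and -0.03.

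The same step, NIPBL loss added to loss of a cofactor, was made from the WAPL line to the WAPL-NIPBL line, which carries WAPL-AID, NIPBL-FKBP, RAD21-Halo and Tir1 and received auxin with dTAG-13 (24 h, 3 libraries in each of 4 groups). There 1032 genes (5.19%) had an interaction called, or 3070 (15.5%) with replicates paired within lines. Both interactions were called for 319 genes, or 17% of the calls with PDS5AB loss and 30.9% of those with WAPL loss, and 291 of these had the same sign (176 higher, 115 lower). With pairing both were called for 1503 genes, or 31% and 49% of the calls, and 1312 had the same sign. Among genes with a higher interaction with PDS5AB loss, 17.8% had a higher interaction called with WAPL loss, against 3.03% of all genes. Among those with a lower interaction, 12.9% had a lower one called with WAPL loss, against 2.16%. The difference between the 2 interactions was called for 327 genes (1.65%). Mobp had interactions of 3.74 and 2.11, Loxl4 of -2.14 and -1.74, and Apoe of 1.24 and 0.68. Jam2 was at 1.00 and -0.02, and Ceacam1 at -2.26 and 1.42, a difference of -3.68 (SE 0.442, edgeR adjusted p = 9.96e-06). These genes were picked by the size of the interaction with PDS5AB loss, which can inflate such a difference.

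Auxin alone changed 3962 genes (19.9%) in the TIR1 line, where auxin and library set cannot be told apart. The count was 7065 in the paired model, although the check gave no ground for pairing in that line. The share that auxin changed was 34.1% of genes with a higher and 30.9% of genes with a lower interaction, and 36.6% of alike genes. Among lists described above, auxin changed 15 of 28 naive pluripotency, 15 of 34 replication and 13 of 30 respiratory chain genes. It changed 4 of 30 mitosis, 9 of 32 epithelial and adhesion and 6 of 25 cholesterol genes. Of genes described above, the auxin effect was called and at least 0.5 in size for Cdx2 (2.78), Pdgfra (1.18), Dsp (1.17), Krtdap (1.17), Mc5r (0.79), Fos (0.67), Ceacam1 (0.64), Meioc (0.64), Cdkn1a (0.62), Car8 (0.59), Klf4 (0.57) and Ccn2 (0.56), which rose. It was -0.72 for Dcbld1, -0.66 for Psat1, -0.64 for Fzd7, -0.58 for Epb41l4a and -0.56 for Aldh18a1, besides Slc7a3, Mobp, Myc and Bdh2. Auxin was given to both treated groups, and its part in the interaction was not tested.

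Pairing replicates within lines changed the call of an effect for some genes described above. The joint effect was called with pairing for Krt19 (0.58), Cacna1h (-0.55), Pds5a (-0.24), Rad21 (-0.13), Gbx2 (0.34), Jam2 (0.15), Meioc (0.55), Rps20 (-0.18) and Cdh1 (0.13), with edgeR adjusted p from 0.000109 to 0.0262. The PDS5AB effect was called with pairing for the new genes Glod5 (-0.66), Fam131c (-0.30) and Slc2a1 (0.27), with edgeR adjusted p from 1.81e-05 to 0.0262.

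Some named genes are uncertain for reasons of counting. Exons on the other strand overlap Pds5a, Tmem200b, H19, Grid2ip, Gbx2, Pou5f1 and Ccn2, and strand was not used. Exons on the same strand overlap Mobp (Gm38642), H19, Pdgfra and Kctd12, each of the last 3 with a microRNA gene. Ribosomal protein genes have near-identical pseudogene copies, and fragments that match several places are dropped, which can lower their counts.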

How the data were processed

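Polyadenylated RNA was sequenced from 30 libraries, of which 12 form the 4 groups compared. The authors deposited raw counts (fragments per gene), made with featureCounts 2.0.1 in paired-end mode on GENCODE vM23 gene models of GRCm38, per the file headers. The recorded command sets no strand option, although the labels describe stranded libraries, and none for fragments that match several places or genes, which are dropped by default. That lowers counts of near-identical or overlapping genes. STAR 2.7.7a and cutadapt are named in the submitters' processing notes. Symbols were matched for 55154 of 55421 genes (99.5%). Depth was 19632704 to 35410075 counts per library, which sets the precision of low genes.

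Counts were tested with edgeR 4.0.16 in R 4.3.3: filterByExpr (minimum count 10, 19868 genes), TMM scaling, and a quasi-likelihood model with a mean for each of 10 groups of all 30 libraries (20 residual degrees of freedom). The interaction and each effect were contrasts of that model, with Benjamini-Hochberg adjustment over all genes tested. Log2 values are fitted, and standard errors follow from the F statistic. A gene was alike when both effects were called with 1 sign, the interaction was not called, and its 95% interval lay within 1.5-fold.

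Replicate numbers were checked for pairing. Deviations from group means of same-numbered libraries correlated at 0.333, 0.109 and 0.296 in the PDS5AB line and 0.163, 0.222 and 0.207 in the PDS5AB-NIPBL line. All exceed 0.1, as in both WAPL lines (lowest 0.186), so the numbers were taken to pair libraries within these lines. In the TIR1 line the values were 0.057, -0.01 and -0.005, so its numbers were not taken to pair, although the paired model also has terms for them. Counts made with that pairing stand beside those they move by over 1.5 times. None were made for interactions of 2-fold or more, the sets by level and span, the sets chosen on the WAPL line, or the difference between the 2 interactions.

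The named genes were, per class, the 4 with the largest interaction in each direction (for alike genes, the 4 highest and 4 lowest PDS5AB effects), with a mean of at least 50 counts and library differences that do not overlap between lines (for alike genes, groups that do not overlap). The tagged genes and up to 3 called members of each list were added. Nanog, Zfp42, Esrrb, Klf4, Pou5f1, Atf4, Psat1, Asns, Pcna, Cdkn1a, Mdm2, Ccng1, Cldn4, Cdh1 and Cebpb were chosen after their values were seen, as was the test of the difference between the interactions with PDS5AB and WAPL loss. Not all genes that the rule names are described, and a result for 1 gene chosen afterwards is not reported here. Pkp3 was named after its values were seen. Members and lists were chosen with earlier results of these data known. Scripts were tested on simulated data. Alternatives tried were scaling by RLE, DESeq2 1.42.0, other filters, the 12 libraries alone, replicate blocks, other margins for alike, leaving out each library, and, added after seeing the data, library totals without a composition factor and, for alike genes, an interval from the fitted weights of the 4 groups, since the F statistic gives a poor standard error for a change near 0.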

Additional observations from a re-analysis of the deposited data

Results flagged for a closer look

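The genes below are named genes for which the interaction of NIPBL loss with PDS5AB loss differed from the interaction of NIPBL loss with WAPL loss, in edgeR's quasi-likelihood test of that difference over 19868 genes with Benjamini-Hochberg adjustment. Each value is the first interaction minus the second, on the log2 scale. The test was chosen after the data were seen, and 327 genes (1.65%) passed it in all. Most named genes were picked by the size of the first interaction. That interaction is a term of the difference and can inflate it, so these values are descriptions.

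The following genes had a higher interaction with PDS5AB loss than with WAPL loss. Gli2 differed by 1.24 (interactions 1.75 and 0.51, adjusted p = 5.41e-06). The difference for Mc5r was 1.91, from 1.61 with PDS5AB loss and -0.30 with WAPL loss (adjusted p = 0.0102). With PDS5AB loss Notumos had an interaction of 1.50, with WAPL loss one of -0.25, a difference of 1.75 (adjusted p = 0.00675). For Mobp the values were 3.74 and 2.11, a difference of 1.64 (adjusted p = 0.0175). H19 differed by 2.43 (interactions 1.69 and -0.73, adjusted p = 0.00987). The difference for Kctd12 was 2.23, from 0.77 with PDS5AB loss and -1.47 with WAPL loss (adjusted p = 1.88e-05). With PDS5AB loss Pcdh19 had an interaction of 0.70, with WAPL loss one of -0.42, a difference of 1.12 (adjusted p = 0.0253). For Gbx2 the values were 1.18 and -0.07, a difference of 1.251 (adjusted p = 0.0242). Jam2 differed by 1.02 (interactions 1.00 and -0.02, adjusted p = 3.48e-06). The difference for Notum was 1.54, from 1.37 with PDS5AB loss and -0.17 with WAPL loss (adjusted p = 8.52e-05). With PDS5AB loss Gsta4 had an interaction of 0.60, with WAPL loss one of -0.16, a difference of 0.77 (adjusted p = 0.0168). For Pcdhb14 the values were 1.48 and -2.36, a difference of 3.85 (adjusted p = 0.0317). The interaction of Pcdhb14 with PDS5AB loss lost its call in 5 of 18 settings, and that of Pcdh19 in 3 of 20 (highest adjusted p = 0.0871 and 0.0631).

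The following genes had a lower interaction with PDS5AB loss than with WAPL loss. Krtdap differed by -3.00 (interactions -2.52 and 0.48, adjusted p = 0.0151). The difference for Plet1 was -1.86, from -2.18 with PDS5AB loss and -0.33 with WAPL loss (adjusted p = 0.00225). With PDS5AB loss Ceacam1 had an interaction of -2.26, with WAPL loss one of 1.42, a difference of -3.68 (adjusted p = 9.96e-06). For Trank1 the values were -1.39 and 0.59, a difference of -1.98 (adjusted p = 0.0481). Car8 differed by -1.90 (interactions -1.26 and 0.64, adjusted p = 0.000196). The difference for Fam131c was -1.62, from -1.20 with PDS5AB loss and 0.43 with WAPL loss (adjusted p = 0.00706). With PDS5AB loss Gata2 had an interaction of -1.67, with WAPL loss one of 0.43, a difference of -2.10 (adjusted p = 0.0222). For Slc2a1 the values were -1.12 and 0.04, a difference of -1.16 (adjusted p = 0.0272). Dsp differed by -1.07 (interactions -1.39 and -0.32, adjusted p = 0.0209). The difference for Col1a2 was -3.91, from -2.19 with PDS5AB loss and 1.72 with WAPL loss (adjusted p = 0.00808), and its group means lay between 0.220 and 1.63 CPM in the 4 PDS5AB and PDS5AB-NIPBL groups. With PDS5AB loss H2-K1 had an interaction of -1.02, with WAPL loss one of 0.21, a difference of -1.24 (adjusted p = 0.0252). For Meioc the values were -1.57 and 0.33, a difference of -1.90 (adjusted p = 0.0084).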

How the results depend on the processing

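In no alternative did a called interaction change sign. The interaction was called for 1893 genes with RLE size factors, 2366 with DESeq2, 2006 without a filter, 2000 at a mean of 50 counts, 1473 from the 12 libraries alone and 1272 to 2078 with 1 library left out. Pairing within lines (replicate block nested in line) gave 2576 higher and 2270 lower calls, 2946 smaller, 1267 opposite, 139 larger, 424 new and 2278 alike genes, 6377 for the joint effect, 3070 for the WAPL interaction and 7065 for auxin in the TIR1 line, where the check gave no ground for pairing. A replicate block common to all lines gave 46 larger and 227 new genes. Library totals alone gave 531 higher and 1597 lower calls. A margin of 0.32 (log2) left 439 alike genes, and an interval from fitted weights 1383. With 1 library left out, lower calls ran from 567 to 1000, higher calls from 659 to 1078, smaller genes from 763 to 1286 and larger genes from 14 to 27. The cause of these shifts was not tested. In the set of lowest mean CPM 71 of 4967 genes had an interaction called, against 775 in the highest; the part of depth in this was not tested.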
